A study of Mus musculus with 2 samples.

Results

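The genes described here make up ribonuclease P (RNase P) and its relative RNase MRP. They were taken by symbol from GENCODE M21: Rpph1, Rmrp, Pop1, Pop4, Pop5, Pop7, Rpp14, Rpp30, Rpp38 and Rpp40. The 10 symbols matched 11 gene models of 55536, since Rmrp is annotated as 2 genes; 8 are protein-coding and 3 noncoding. RNA was measured by rRNA-depleted total RNA sequencing in the cytosolic fraction of primary C57BL/6J bone-marrow-derived macrophages (BMDM), all treated with Lipid A at 100 ng/ml for 75 minutes. There was 1 group of 2 libraries, numbered biological replicates 1 and 2 and each made from 1 µg of RNA. Both libraries carry the same donor identifier, sex and age were not collected, and the labels do not say whether the cells came from separate animals or cultures. The spread between them may therefore be technical. Untreated cells and the nuclear fraction were not analysed here, so no value below shows an effect of Lipid A or a ratio between compartments.

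RNase P is a ribonucleoprotein enzyme that removes the 5′ leader from precursor transfer RNAs; its RNA, encoded by Rpph1, is the catalytic part. RNase MRP, built around the RNA from Rmrp, cuts the precursor of ribosomal RNA, and the enzymes share most of their protein subunits. Both RNAs are made by RNA polymerase III and are known mainly from the nucleus and nucleolus, with RNase MRP also described in mitochondria.

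Both RNA genes are short, and each overlaps another annotated transcript, so their sequences are given first. Rpph1 lies on the minus strand of chromosome 14 (50807449 to 50807767, mm10) and its single transcript has 319 bases with 67.1% G and C. Its bases 1 to 300 are shown 5′ to 3′ from GENCODE M21, as is Rmrp; capitals mark a 21-base unit that occurs 2 times in a row, at bases 182 to 223.
Rpph1: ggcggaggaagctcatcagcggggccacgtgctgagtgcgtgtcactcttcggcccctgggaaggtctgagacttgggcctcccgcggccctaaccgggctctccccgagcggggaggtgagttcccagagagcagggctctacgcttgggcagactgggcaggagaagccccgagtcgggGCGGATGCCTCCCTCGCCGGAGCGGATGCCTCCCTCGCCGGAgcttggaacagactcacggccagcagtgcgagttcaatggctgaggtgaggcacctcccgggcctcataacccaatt
Rmrp lies on the minus strand of chromosome 4. A ribozyme model of 271 bases (43492788 to 43493058, mm10) is contained whole in a lincRNA model of 281 bases (43492783 to 43493063). Capitals mark the 5 bases at each end that only the longer model has.
Rmrp: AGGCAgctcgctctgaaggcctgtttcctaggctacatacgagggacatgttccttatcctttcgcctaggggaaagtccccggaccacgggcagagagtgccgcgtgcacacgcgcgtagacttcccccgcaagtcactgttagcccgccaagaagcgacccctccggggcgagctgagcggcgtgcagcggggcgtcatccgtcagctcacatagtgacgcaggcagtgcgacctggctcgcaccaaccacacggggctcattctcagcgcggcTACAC
The longest run of identical bases that the 2 RNAs share is 9 bases, CAGCGGGGC. Only fragments that reach one of the marked ends tell the Rmrp models apart, so the split between the models is uncertain.

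**Figure D1:**
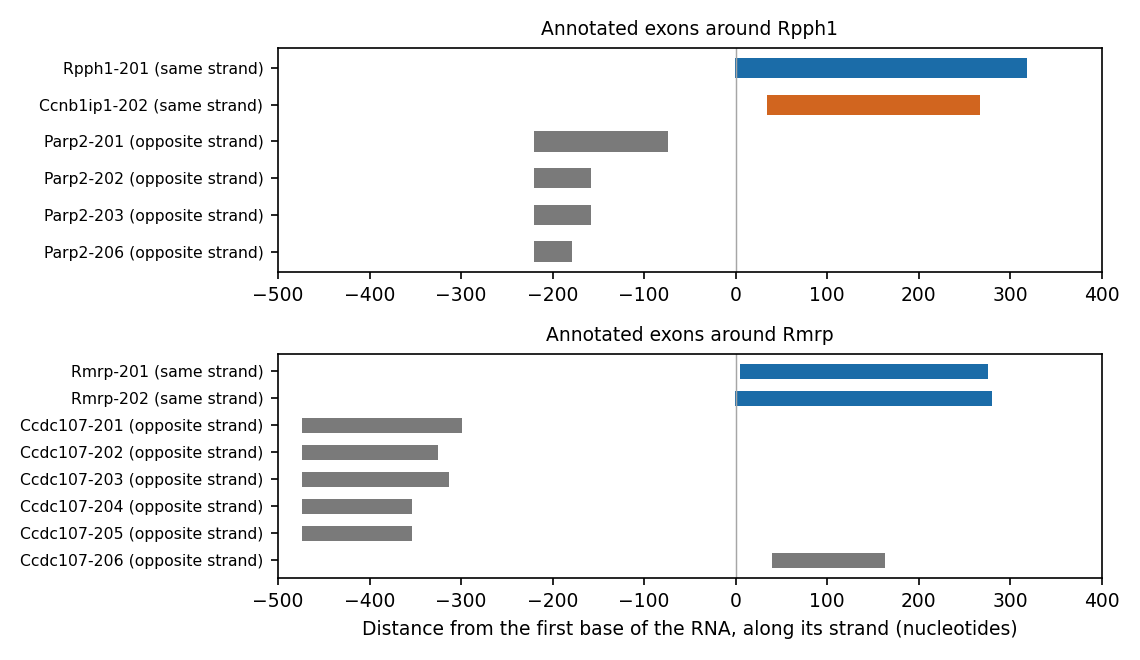
Annotated exons (bars) around Rpph1 and Rmrp, placed by distance in nucleotides from the first base of the RNA along its own strand; blue bars are the RNAs, orange an exon on the same strand and grey exons on the opposite strand. The Ccnb1ip1-202 exon lies wholly inside Rpph1, and the Ccdc107-206 exon lies inside both Rmrp models on the opposite strand.

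An exon of Ccnb1ip1-202 is annotated over 233 of the same bases as Rpph1 on the same strand, the repeat included; among transcripts of other genes the 21-base unit occurs in this 1 transcript. Ccnb1ip1-202 had 0 and 1.10 expected counts in replicates 1 and 2, and 56.5 and 72.3 in the second deposited quantification, which was made directly from the reads. The exon of Ccdc107-206 shares 124 bases with Rmrp on the opposite strand; that transcript had 0 and 4.03 expected counts, and 16.2 and 46.6 in the second quantification. The strand used in counting is not given in the sources used here. Parp2, a DNA repair gene separated from Rpph1 by 73 nucleotides on the other strand, had 5.22 and 5.16 TPM. Apart from these overlaps, and the match of the Rmrp models to one another, neither RNA matched a transcript of another gene at 90% identity over 100 bases.

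Levels are given as TPM, a level corrected for transcript length and library total, with expected counts (the fragments assigned to a gene) beside them. Rpph1 had 25691 TPM in replicate 1 and 42670 TPM in replicate 2 (mean 34180 ± 12006, SD, n = 2), from 317556 and 444055 expected counts. By TPM it had rank 4 among all genes in both libraries. The shorter Rmrp model had ranks 7 and 5 and the longer one ranks 9 and 8. The 271-base Rmrp model had 6415 and 18610 TPM (12512 ± 8623), from 49543 and 120141 counts. The 281-base model had 4223 and 4563 TPM (4393 ± 240.1), from 36492 and 33015 counts. Rpph1 and the 271-base model were thus higher in replicate 2, while the 281-base model was nearly level.

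Summed over both models, Rmrp had 10638 TPM in replicate 1 and 23172 in replicate 2 (16905 ± 8863). Rpph1 exceeded this sum 2.42-fold and 1.84-fold, 2.13 ± 0.406 on average. By counts, which are not corrected for length, it did so 3.69-fold and 2.90-fold. The second quantification gave 2.85-fold and 2.14-fold on its TPM scale. Rpph1 stood above Rmrp in each library by each measure, and the ratio was smaller in replicate 2 each time.

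The division between the Rmrp models moved with the library and with the method. The 271-base model took 57.6% of the Rmrp counts in replicate 1 and 78.4% in replicate 2. The second quantification put 32.6% and 70.5% there, so that in replicate 1 the longer model was the higher one. The deposited posterior SD of the 271-base model's count was 0.788% and 0.305% of that count, far less than the gap between the quantifications.

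Together Rpph1 and Rmrp held 3.63% and 6.59% of the TPM of all genes (5.11% ± 2.09), but 0.726% and 1.19% of their counts. In the second quantification the TPM share was 1.51% and 1.95%. TPM is the count divided by the effective length, the number of positions where a fragment could start, and then scaled. The deposited effective length was 106 nucleotides for Rpph1 and 66.5 for the 271-base Rmrp model in replicate 1, against 664 for the short mRNA of Pop7.

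The mRNAs of the protein subunits had low TPM values. Of the 8 genes, 6 reached a mean of 1 TPM, the level used here to call a gene detected, as did 39.3% of all 22028 protein-coding genes. The median of the 8 was 2.10 TPM in both libraries (2.095 and 2.105), and their places among protein-coding genes ran from percentile 57.6 to 75.6 in replicate 1 and from 59.2 to 74.6 in replicate 2. A list of 10 other short RNAs, led by the 7SL genes Rn7s1 and Rn7s2, held 734052 and 687727 TPM in sum, so levels were also rescaled to the summed TPM of nuclear protein-coding genes. After this rescaling all 8 protein members and 47.3% of protein-coding genes reached 1, and the members ran from 2.78 to 19.4 in replicate 1 and from 3.80 to 18.2 in replicate 2. The summed counts of the 8 genes were 2196 and 1693, or 0.00395% and 0.00338% of all counts.

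**Figure D2:**
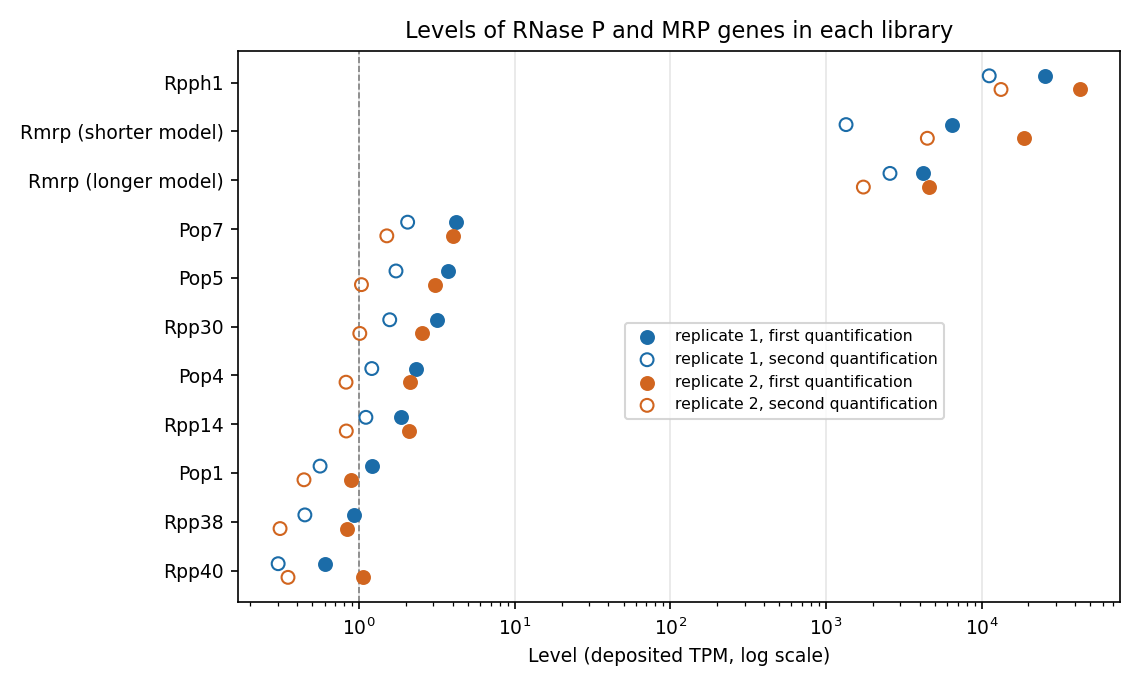
TPM (log axis) of the 11 gene models in replicate 1 (blue) and replicate 2 (orange); filled points are the first and open points the second deposited quantification, and the dashed line marks 1 TPM. The 3 RNA models lie above 1000 TPM and the 8 protein genes below 5 TPM in both libraries and both quantifications.

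Pop7 and Pop4 encode subunits that sit on the RNA. Pop7 (Rpp20) forms a pair with Rpp25 and binds a helix that both RNAs share. Its gene (chromosome 5, 137501438 to 137502518) had the highest level of the 8, with TPM values of 4.18 and 3.98 (4.08 ± 0.141, SD, n = 2), from 323 and 260 counts. Pop4 (Rpp29; chromosome 7, 38261996 to 38271423) had 2.33 and 2.12 TPM (2.23 ± 0.148), from 493 and 375 counts. Rpp38, a relative of ribosomal protein L7Ae that binds a kinked RNA turn, had 0.92 and 0.83 TPM (0.875 ± 0.0636). Its gene (chromosome 2, 3328949 to 3332643) gave 88 and 67 counts. Rpp38 was the only member below 1 TPM in both libraries.

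Pop5, Rpp30, Rpp14 and Rpp40 belong to one module of the enzyme, and Pop1 is its largest protein and a scaffold. Pop5 (chromosome 5, 115235836 to 115245351) had 3.70 and 3.06 TPM (3.38 ± 0.453), from 160 and 128 counts. Rpp30 (chromosome 19, 36083716 to 36104777) had 3.15 and 2.52 TPM (2.84 ± 0.445), from 328 and 230 counts. Rpp14 (chromosome 14, 8080367 to 8091834) had 1.86 and 2.09 TPM (1.98 ± 0.163), from 424 and 300 counts. Pop5 and Rpp30 were lower in replicate 2 by both measures, whereas Rpp14 was higher by TPM and lower by counts.

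Pop1 (chromosome 15, 34495304 to 34530648) had 1.21 and 0.880 TPM (1.05 ± 0.233), from 292 and 243 counts. Rpp40 (chromosome 13, 35893472 to 35906359) had 0.60 and 1.05 TPM (0.825 ± 0.318), from 88 and 90 counts. Each of these genes crossed 1 TPM between the libraries, Pop1 downward and Rpp40 upward in replicate 2.

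In falling order of mean TPM the genes ran Pop7, Pop5, Rpp30, Pop4, Rpp14, Pop1, Rpp38, Rpp40. The values of neighbours overlapped between Pop5 and Rpp30, between Pop1 and Rpp38 and between Rpp38 and Rpp40; the other neighbours did not overlap over the 2 libraries. The same first 5 genes came in the same order in each library. In the second quantification the order of replicate 1 was the same for all 8; in replicate 2 Rpp14 stood above Pop4, and Rpp40 above Rpp38. Rpph1 lay 6146-fold above the highest protein gene in replicate 1 and 10721-fold in replicate 2 by TPM, and 644-fold and 1184-fold above the highest by counts.

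The libraries were compared with each other to see which differences a pair of replicates can carry. With 1 library on each side there is no test and no p-value; the 95% intervals are exact Clopper-Pearson intervals and cover counting error only. Counts were scaled by TMM, a factor that sets the bulk of genes level. Among genes with a mean of 100 or more counts, 1.60% of all 10091 genes and 0.536% of protein-coding genes differed by 2-fold or more. Of the members, 9 had that many counts and 1 passed 2-fold, the 271-base Rmrp model, which was higher in replicate 2. There 1.31% of all genes were 2-fold higher, and 26.3% of the 392 genes of biotypes other than protein-coding, to which this model belongs. No member was 2-fold lower, as 0.287% of genes were. With a minimum of 10 counts all 11 models were included, 1 passed, and the share over all genes was 6.97%. In bulk RNA, fewer cells of a type and less RNA per cell cannot be told apart.

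Both RNA components were higher in replicate 2. For Rpph1 replicate 2 was 1.60-fold replicate 1 (95% interval 1.59 to 1.61). The 271-base Rmrp model was 2.78-fold higher (2.75 to 2.80) and the 281-base model 1.04-fold (1.02 to 1.05). In the second quantification the log2 ratio of the 271-base model was 2.06, against 1.47 here. Summed, Rmrp was 2.04-fold higher (2.02 to 2.05), and between 1.93-fold in the second quantification and 2.43-fold when scaled by the spiked-in RNAs. For Rpph1 the log2 ratio stayed between 0.58 and 0.93 under all scalings and both quantifications. The 281-base model has no settled direction, since its log2 ratio was 0.05 here and -0.24 in the second quantification.

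RNAs known to stay in the nucleus also stood higher in replicate 2. All 5 of the nuclear-retained list passed 2-fold, with fold differences of 4.68 for Malat1, 4.06 for Neat1, 4.76 for Xist, 2.54 for Firre and 4.50 for Kcnq1ot1. Kcnq1ot1, with 65 and 257 counts, had a log2 ratio of 2.17 here and 1.31 in the second quantification. Their summed level was 174.69 TPM in replicate 1 and 870.98 in replicate 2. Rn7sk, a nuclear RNA polymerase III product, was 2.22-fold higher. The cytoplasmic 7SL genes Rn7s1 and Rn7s2, also made by RNA polymerase III, were 0.833-fold each; they are near-identical copies whose reads can be split between them, and count here as 1 measurement. Of the 10 other short RNAs 4 had 100 or more counts, and beside Rn7sk the U1 gene Rnu1a1 passed 2-fold, at 3.15-fold. Among the 392 genes of biotypes other than protein-coding with 100 or more counts, 26.3% were 2-fold or more higher in replicate 2 and 33.2% 1.5-fold or more. The part of nuclear RNA in the differences of Rpph1 and Rmrp was not tested.

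**Figure D3:**
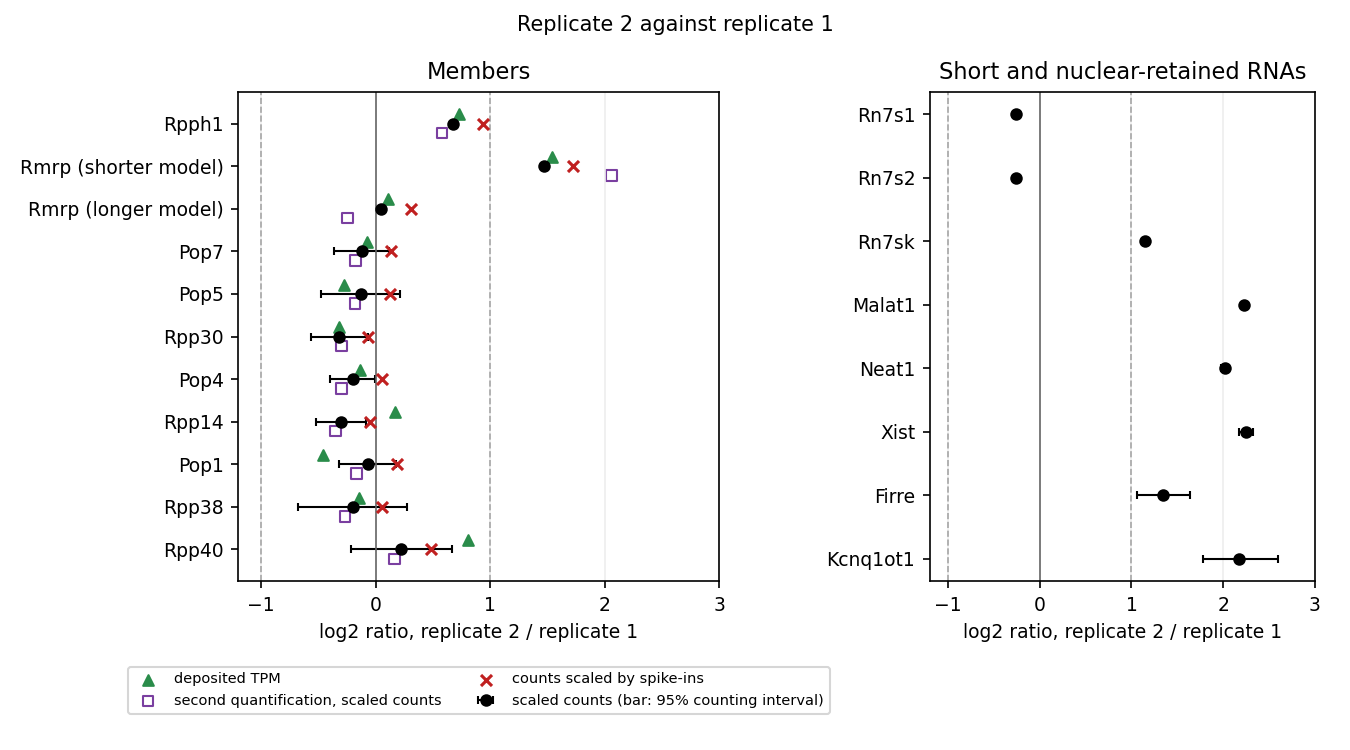
Left, log2 ratio of replicate 2 to replicate 1 for each member from TMM-scaled counts (black, with 95% counting intervals), deposited TPM (green triangles), the second quantification (purple squares) and counts scaled by spike-ins (red crosses); right, TMM-scaled counts of short and nuclear-retained RNAs. Dashed lines mark 2-fold; Rpph1 and the 271-base Rmrp model lie to the right of 0 by every measure, and the protein genes lie within 2-fold.

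The mRNAs of the protein subunits differed little. By TMM-scaled counts 7 of the 8 were lower in replicate 2, as were 55.1% of protein-coding genes with 100 or more counts. Rpp38 and Rpp40 did not reach that minimum. Scaled by spike-ins 2 of 8 were lower, and the share of protein-coding genes lower was not computed. That scaling moved the median log2 ratio of protein-coding genes from -0.03 to 0.23. The log2 ratios of the 8 ran from -0.32 to 0.23 with a median of -0.16, and none reached 2-fold. The counting interval left out equality for 3 genes: Rpp30 was 0.803-fold (0.675 to 0.953), Rpp14 0.810-fold (0.696 to 0.941) and Pop4 0.871-fold (0.759 to 0.998) in replicate 2. These differences lay among those of other genes, since 90% of protein-coding genes had log2 ratios between -0.37 and 0.45. The share of protein-coding genes whose counting interval left out equality was not computed. For Pop7, Pop5, Pop1, Rpp38 and Rpp40 the intervals included equality, from 0.625 to 1.21 for Rpp38 and from 0.863 to 1.59 for Rpp40.

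For 3 genes the ratio between the libraries differed most between TPM and counts. The log2 ratio of Rpp14 was -0.30 by scaled counts and 0.17 by TPM, that of Rpp40 0.23 and 0.81, and that of Pop1 -0.07 and -0.46. The deposited effective lengths of these genes differed between replicates 1 and 2: 1961 and 1473 nucleotides for Rpp14, 1266 and 879 for Rpp40, and 2076 and 2842 for Pop1. For Pop4 they were 1823 and 1808.

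Rpp14 has 2 annotated transcripts, and the shorter is nested in the longer. Rpp14-202 has 477 bases, all of them identical to bases 645 to 1121 of Rpp14-201, which has 2401. The annotated reading frame of Rpp14-201 has 122 codons and ends at base 531; its longest open frame has 158 codons and is the one annotated as the coding region of Rpp14-202. In vertebrates the Rpp14 mRNA is known to carry such a downstream frame, for a mitochondrial dehydratase of fatty acid synthesis called HTD2. Rpp14-202 was given 6.28 of 424 counts in replicate 1 and 19.3 of 300 in replicate 2, with a posterior SD of 5.52 and 5.81 counts. These few counts came to 11.3% and 36.8% of the gene's TPM; the effective length in replicate 1 was 256 nucleotides for Rpp14-202 and 2179 for Rpp14-201. In the second quantification Rpp14-202 held 26.7% and 36.7% of the gene's TPM. The gene counts cover both reading frames.

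Rpp40 counts were split among Rpp40-202 (1053 bases; 50.2 and 56.8 counts), Rpp40-201 (4380 bases; 37.8 and 30.2 counts) and the 276-base Rpp40-203. The last had 0 counts in replicate 1 and 1.87 in replicate 2, yet took 26.1% of the gene's TPM in replicate 2. Its share in the second quantification was 0% and 15.2%. In Pop1 the main transcript Pop1-202 had 255 and 227 counts. The retained-intron transcript Pop1-205 had 15.1 and 0 counts, which made 35.7% of Pop1 TPM in replicate 1. In the second quantification Pop1-205 held 27.4% and 8.93% of Pop1 TPM. All Pop1 retained-intron transcripts together held 27.4% and 30.9% there. In all 3 genes the short transcript whose TPM share moved had under 20 counts in each library of the first quantification.

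Pop5 was the only protein member with most of its counts outside coding transcripts. Its coding transcript Pop5-201 had 60.3 of 160 counts in replicate 1 and 40.0 of 128 in replicate 2, that is 37.7% and 31.3%. The noncoding processed transcripts Pop5-202 (49.96 and 35.4 counts) and Pop5-204 (43.5 and 27.4 counts) held much of the rest. By TPM the coding share was 17.5% and 16.7%, and 23.2% and 27.7% in the second quantification. Pop5 overlaps Rnf10, a gene on the opposite strand with 24.49 and 22.42 TPM, over 3940 nucleotides; its part in the Pop5 counts was not tested.

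In Pop4, Pop7 and Rpp30 a single coding transcript led. Pop4-201 held 94.6% and 93.3% of the gene's TPM, Pop7-201 94.98% and 93.2% and Rpp30-201 95.2% and 98.5%. Rpp38 has 1 annotated transcript. Over the 7 genes with several transcripts, the median share of the transcript with most counts was 88.7% in replicate 1 and 86.8% in replicate 2. Parts of Rpp30-205, Rpp40-201 and Rpp40-204 matched transcripts of 90, 30 and 394 other genes at 90% identity over 100 bases, so reads there are less certain; no other mRNA of the members had such a match.

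**Figure D4:**
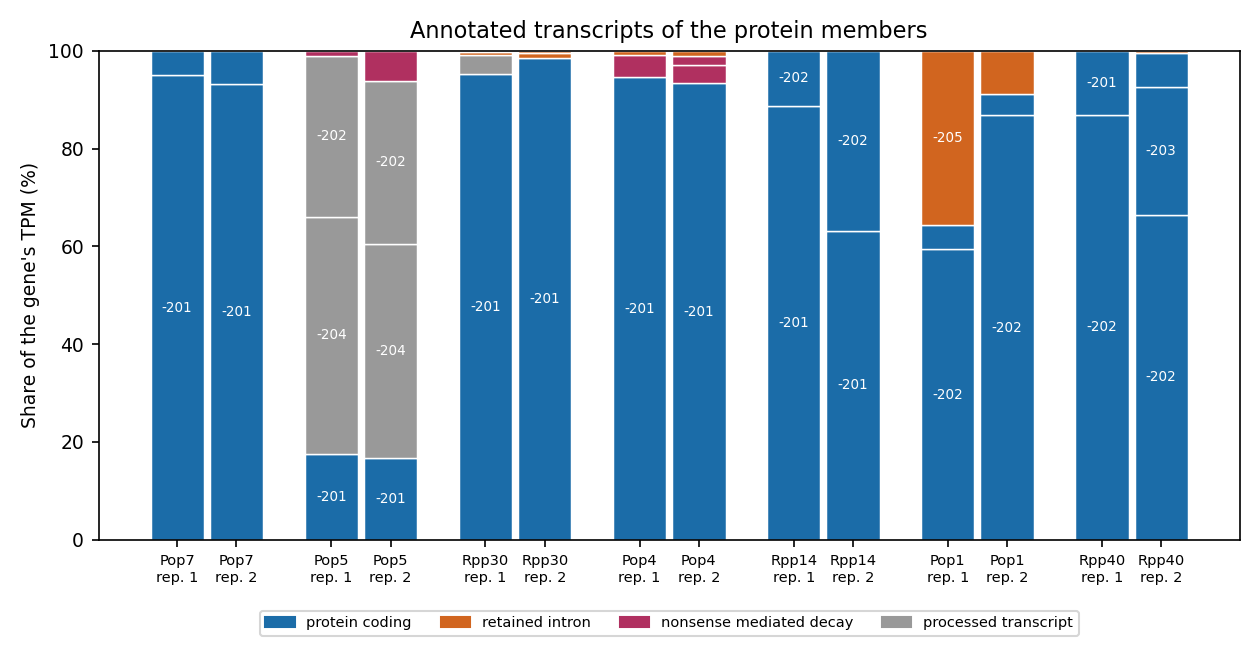
Share of each gene's TPM (percent, from expected counts divided by effective length) taken by its annotated transcripts in replicates 1 and 2, coloured by annotated class and labelled by transcript number where above 9%. In this first quantification Rpp14, Pop1 and Rpp40 differ most between the libraries, and in Pop5 processed transcripts take most of the bar.

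Of the subunits outside these symbols, Rpp21, which pairs with Pop4 in RNase P, had 5.09 and 4.16 TPM (4.63 ± 0.658, SD, n = 2), above all 8 members by its mean. Rpp25, the partner of Pop7, had 0.0400 and 0.0200 TPM, from 5 and 2 counts. Its relative Rpp25l had 1.41 and 1.13 TPM (1.27 ± 0.198), from 104 and 70 counts. Rpp25 was thus barely above 0, while Rpp25l exceeded 1 TPM in both libraries.

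Of 50 pathway genes on 5 lists, 41 reached 1 TPM, as did 39.3% of all protein-coding genes. After the rescaling to protein-coding genes 49 did, beside 47.3% of all. Of the 50, 22 did in the second quantification, where the share of all protein-coding genes was not computed. Mitochondria use an RNase P without an RNA part, and all 3 of its genes reached a mean of 1 TPM in the first quantification. They were Hsd17b10 (9.12 ± 0.827 TPM), the nuclease gene Prorp, listed as 1110008L16Rik (1.29 ± 0.0707 TPM), and Trmt10c (1.21 ± 0.191 TPM). In the second quantification Hsd17b10 had 4.75 and 3.19 TPM, Prorp 0.562 and 0.459, and Trmt10c 0.525 and 0.523.

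Of 12 genes for tRNA ends, splicing and export, 9 reached 1 TPM, with a median of 2.81. The RNA chaperone Ssb (La), which binds the 3′ end of new RNA polymerase III transcripts, led with 20.3 ± 0.304 TPM. Rtcb, the tRNA ligase, had 11.2 ± 0.0141 TPM, the CCA-adding enzyme Trnt1 5.16 ± 0.410 and the exporter Xpot 5.06 ± 0.205. Elac1 (0.980 TPM), a tRNA 3′ end nuclease, and Thg1l (0.995 TPM) were among those below 1 TPM.

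Of 22 genes of RNA polymerase III and of the factors for promoters such as those of Rpph1 and Rmrp, 18 reached 1 TPM, with a median of 1.77. The repressor Maf1 had 12.4 ± 0.361 TPM and Snapc5, a subunit of the promoter-binding complex SNAPc, 9.83 ± 1.07 TPM. The polymerase subunit Polr3gl followed (6.64 ± 1.31 TPM). Below 1 TPM were Polr3g (0.755), Snapc3 (0.795), Brf2 (0.890) and Snapc4 (0.985). Snapc3 came closest to a 2-fold difference, at 1.95-fold in replicate 2 (1.51 to 2.54). Its log2 ratio in the second quantification was 1.001, just past 2-fold.

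Of 10 genes of pre-rRNA processing 9 reached 1 TPM, with a median of 3.67. The exonuclease Xrn2 had 11.8 ± 0.134 TPM, Fcf1 of the small subunit processome 11.1 ± 1.11, the exosome nuclease Exosc10 7.23 ± 0.615 and Utp14a 4.72 ± 0.113; Nepro (0.895 TPM) was below 1. By TMM-scaled counts of the first quantification, none of the genes on these 5 lists with 100 or more counts passed 2-fold between the libraries. Beside this stood 0.536% of protein-coding genes, a share at which 0 in lists of this size says nothing particular about them. In the second quantification Snapc3 lay just past 2-fold, and list genes past it were not counted there.

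**Figure D5:**
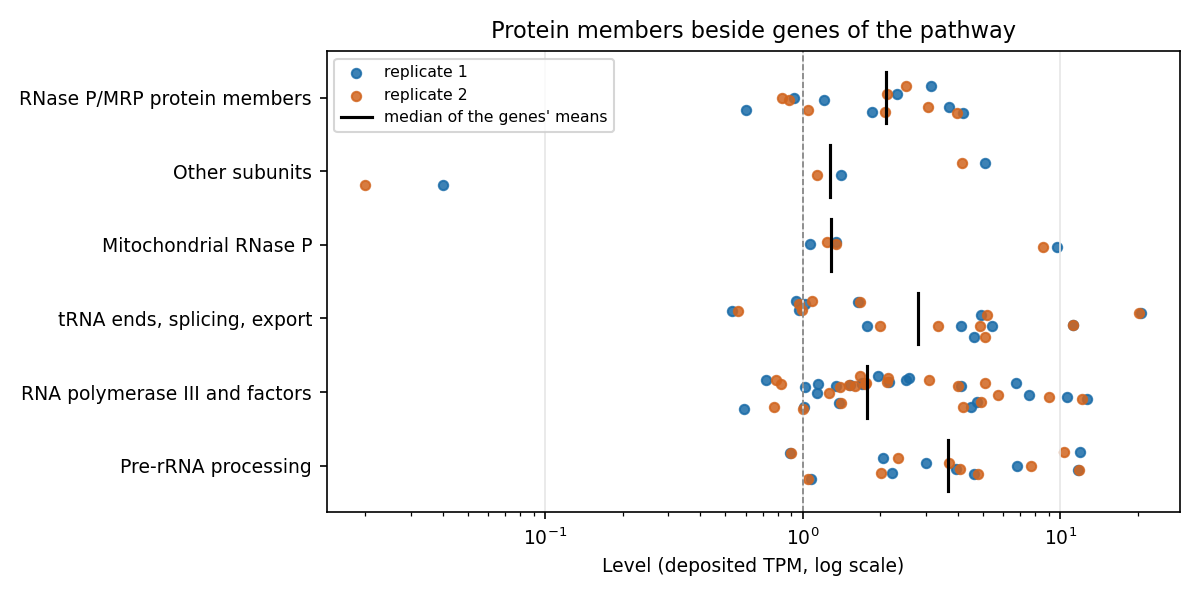
TPM (log axis) of the 8 protein members and of 5 pathway lists, with 1 point per gene and library (blue replicate 1, orange replicate 2) and a black line at the median of the genes' means. The members' median of 2.10 TPM lies between those of RNA polymerase III genes (1.77) and genes for tRNA ends, splicing and export (2.81). Rpp25 stands apart at the far left.

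As to depth and identity, the expected counts summed to 55736363 and 50259425. All 6 macrophage markers were present, from 98.8 to 4227 TPM. Of other cell types, 4 of 5 neutrophil markers reached 1 TPM (up to 17.4 TPM, with Ly6g at 0 in both libraries). One gene did on each of the lists of 4 for B cells (Ighm), erythroid cells and platelets (Pf4), and stromal and endothelial cells (Kdr). Pf4 had 143.2 and 179.2 TPM, and no T and NK cell marker exceeded 0.0300 TPM.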

How the data were processed

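Libraries were sequenced and quantified by the authors. Per the readme files deposited with them, all tables use genome build mm10 and annotation M21; the first quantification came from transcriptome alignments and the second directly from the reads. What software did this, and with which strand setting, the sources used here do not give. Deposited by the authors were expected counts, which are estimates without normalization and need not be whole, and TPM values. The other deposited columns used were effective lengths and posterior SDs of counts.

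Members were joined to GENCODE M21 by versioned gene identifier. The 97 spike-in entries held 0.251% and 0.204% of counts in replicates 1 and 2. The 26248 numbered entries, whose identifiers give no gene name, held 0 and 0.95 counts. Both sets were left out, leaving 55596625 and 50157146. Second-quantification values were summed per gene. Counts were rounded, and TMM factors came from genes averaging at least 10 counts (edgeR 4.0.16, R 4.3.3), with 0.5 added for ratios; DESeq2 1.42.0 gave alternative size factors. Rpph1 and Rmrp sequences are GENCODE M21 transcripts; matches to other transcripts were sought with blastn 2.17.0. Python 3.11.15, pandas 2.3.3, numpy 2.4.6, scipy 1.17.1 and matplotlib 3.10.9 did the rest. The ratio step was tested on simulated counts with known folds in both directions. That checks the calculation only, not the spread between the real libraries. Members and lists were chosen with earlier results of these data known. Named were all members and, of each pathway list, up to the 4 highest genes and those below 1 TPM; some of these genes are not reported here.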

Additional observations from a re-analysis of the deposited data

How the results depend on the processing

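With 1 group no test was run, and values here are descriptive. No paired analysis was possible because there is a single group. The median level of the protein members was 2.10 TPM, 0.989 in the second quantification and 9.67 after rescaling to protein-coding genes; leaving out either library gave 2.095 to 2.105. The count of members at 1 TPM or more was 4 in the second quantification. The count of pathway genes was 26 at 2 TPM and 22 in the second quantification. The shares of all protein-coding genes at these settings were not computed. The counts therefore say nothing particular about the members or lists. The TPM share of Rpph1 and Rmrp was 1.73% in the second quantification and the count share 0.958%. Leaving out either library gave 3.63% to 6.59%. The median share of the leading transcript was 77.5% in the second quantification and 93.7% by counts. The median log2 ratio of the protein members was 0.092 when scaled by spike-ins and between -0.22 and -0.14 otherwise. Past 1.5-fold there were 2 members, Rpph1 being the second. Both are noncoding models, a class in which 33.2% of 392 genes with 100 or more counts were 1.5-fold or more higher in replicate 2. The share over all genes at 1.5-fold was not computed. Summing the Rmrp models, an alternative added after the data were seen, left 1 member past 2-fold; that sum lay just above it and was 1.97-fold by total counts and 1.93-fold in the second quantification. The cause of these shifts was not tested. Depth limits Rpp38 and Rpp40, with fewer than 100 counts each, and all transcript shares.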
